A study of Rattus norvegicus with 2 samples.

Results

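The collagen genes of rat sympathetic neurons were described on 2 arrays. These neurons release noradrenaline onto the heart, blood vessels and other organs. The genes are those of the collagen chains and of the proteins that modify, fold, trim and cross-link them. The genes were picked by gene symbol, as every collagen chain, lysyl oxidase, prolyl 4-hydroxylase subunit and lysyl hydroxylase on the array, together with Pcolce, Serpinh1 and Bmp1. The symbols matched 40 of the 10411 genes that had a probe set with exactly 1 symbol, 29 of them chains and 11 processing proteins. The gene's value is that of its brightest probe set.

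One array held RNA of neurons that had grown with myocytes, a muscle target of these neurons, and were then rinsed off the dish with EDTA. The other held RNA of neurons grown without them. The labels give no rat strain, animal age, culture time or number of cultures, and the free-text description of the co-culture sample speaks of neurons grown alone, which conflicts with its title and source name. Its group was taken from the title. The EDTA rinse lifts the less adherent neurons. The extraction text is the same for both samples and speaks of myocytes or other flat cells in the dishes. That text thus gives no difference in harvest between the 2 samples. The median intensity of the probe sets without controls was 175.0 in the co-culture array and 185.7 in the array of neurons alone. With 1 array per condition there is no replicate, so nothing below was tested and every difference is one between these 2 arrays.

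Collagens are extracellular proteins in which chains with a repeated glycine motif wind into a triple helix. Fibrillar collagens build the fibres of connective tissue, type IV collagen builds the network of basement membranes, and others, such as type VI, form fine beaded filaments near cells. In the endoplasmic reticulum, prolyl and lysyl hydroxylases modify the chains and the chaperone Serpinh1 (Hsp47) holds the folded helix. Outside the cell propeptides are cut off and lysyl oxidases cross-link the fibrils. In peripheral nerve and ganglia, Schwann cells and fibroblasts are known sources of collagen.

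Of the 40 genes, 30 were above the filter, which asks for an intensity at or above the array's own median in at least 1 array. Past 1.5-fold in either direction were 5.23% of all 6368 genes above the filter, and past 2-fold 0.942%. In neurons from co-culture 4 of the 30 collagen genes were at least 1.5-fold higher (13.3%), namely Col5a3, Loxl1, Col6a3 and Col6a1, against 1.93% of all those genes. On the other side 2 of the 30, Col11a1 and Col14a1, were at least 1.5-fold lower (6.67%), against 3.3% of all genes. At 2-fold there was 1 higher gene, Col5a3 (3.33%, against 0.314% of all genes), and 1 lower gene, Col11a1 (3.33%, against 0.628%). Col11a1 passed the filter only through neurons alone, where it is higher. The count of 2-fold lower genes was 0 with the floor for low values at the 40th percentile or with a pseudocount. Nothing is read from the 1.5-fold or the 2-fold lower share, since both count Col11a1. Every log2 ratio sets co-culture over neurons alone, so a positive one means a higher intensity in neurons from co-culture. Its median was 0.15 over the 30 genes and -0.01 over all genes above the filter. In such bulk RNA, more cells of a type and more RNA per cell cannot be told apart. On the same arrays the summed intensity of a list of fibroblast markers was 1.15-fold and that of sympathetic neuron markers 0.812-fold in neurons from co-culture relative to neurons alone. Of the 11 fibroblast markers 6 also stand on the pathway lists described further on. The sum of the other 5, in which the bright Vim weighs most, was 1.03-fold. The part of either marker list in the collagen values was not tested.

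Small ratios depended on how the arrays were scaled to each other. As deposited, 24 of the 30 genes were higher (80%, against 47.3% of all genes) and 6 lower (20%, against 52.7%). Over 6 scalings, which are the deposited values and 5 alternatives, 16 were higher in each (53.3%, against 30.6% of all genes) and 2 were lower in each (6.67%, against 38.7%). The 2 lower genes were Col14a1 and Col11a1, which passed the filter through neurons alone only. The other 12 changed sign and lay within 0.11 of 0 on the log2 scale as deposited. The scaling to spiked control transcripts was the one that moved the median of all genes by over 0.1, which it lowered by 0.11. To judge single genes, the noise of a single probe set was estimated as an SD from 749 genes of which at least 2 probe sets passed the filter. It was 0.36 in the dimmest of 4 equal groups by signal, then 0.29, 0.27 and 0.21 in the brightest. This is the noise of probe sets within the array pair and does not stand for a replicate. By it, 8 genes had a ratio over 2 SD, among them Col11a1, and 18 were within 1 SD of 0. The share of all genes over 2 SD was not computed, so these counts are not set against other genes.

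**Figure D1:**
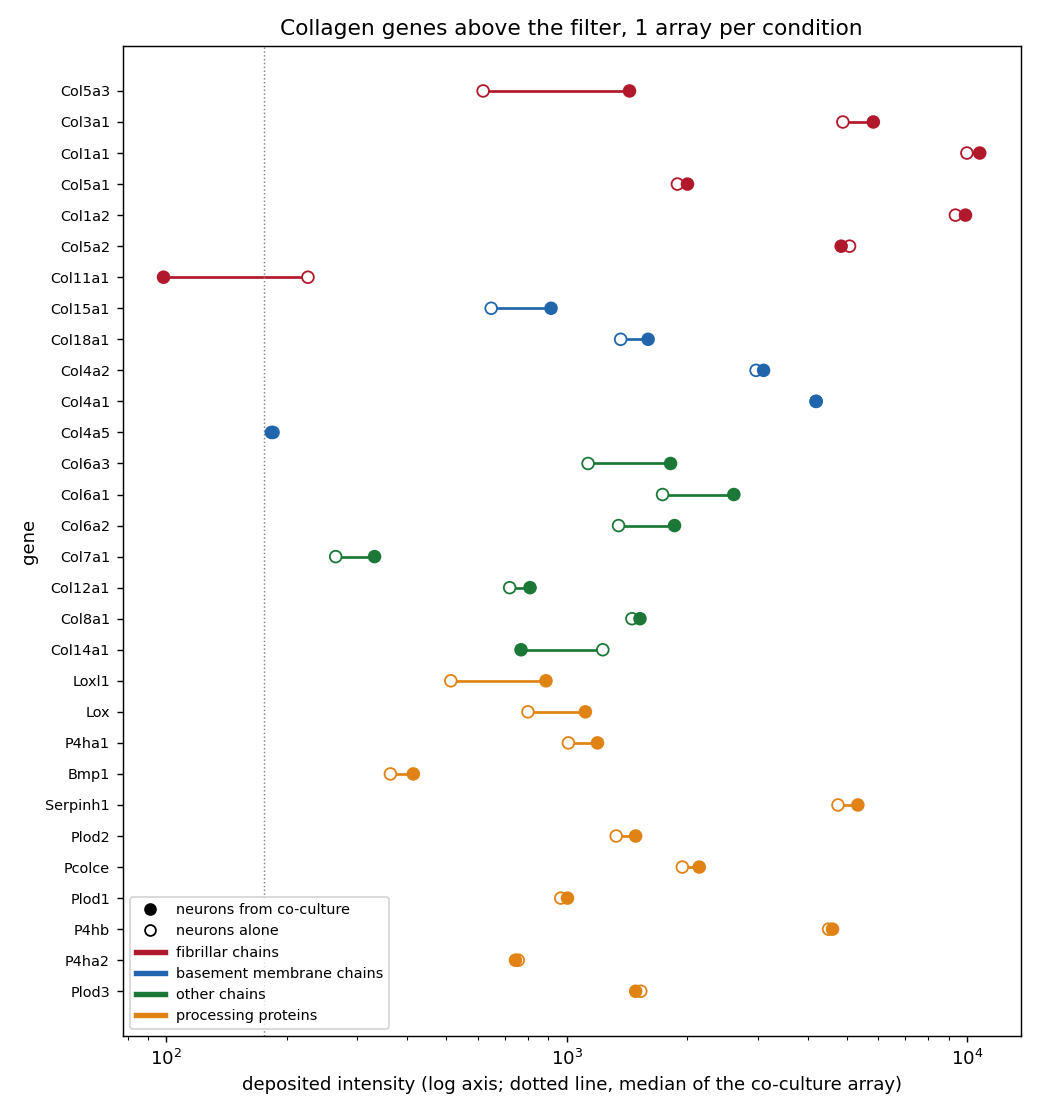
Deposited intensity (log axis) of the 30 collagen genes above the filter, with filled points for neurons from co-culture and open points for neurons alone, joined by a line, ordered by log2 ratio within each group. Most pairs of points lie close together, and the longest lines belong to Col5a3 (1435 in neurons from co-culture and 618 in neurons alone) and Col11a1 (98.4 in neurons from co-culture and 226 in neurons alone).

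Among the fibrillar chains the bright ones had ratios near 0, and the minor chain Col5a3 was higher in neurons from co-culture. No direction is read from the minor chain Col11a1, which passed the filter through neurons alone only. Of 10 such genes 7 were above the filter, with a median log2 ratio of 0.08 that turned to -0.05 under lowess and -0.02 under spiked control scaling. Col1a1, the main chain of type I collagen, had an intensity of 10750 in neurons from co-culture and 9988 in neurons alone. Its partner Col1a2 had 9907 in neurons from co-culture and 9350 in neurons alone. Both chains were thus within 1.08-fold on the 2 arrays. The log2 ratios were 0.11 (Col1a1, -0.03 under quantile normalization and -0.05 under lowess) and 0.08 (Col1a2, -0.07 under lowess and -0.02 under spiked control scaling). Their log2 ratios differed by 0.02, less than the 0.29 that is the combined probe set SD of such a pair.

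Col3a1, the type III chain that assembles with type I in pliable tissue, had 5831 in neurons from co-culture and 4894 in neurons alone. Its log2 ratio of 0.25 stayed between 0.13 and 0.34 over the 6 scalings and was slightly above the probe set SD of 0.21. Col5a1 and Col5a2 are the chains of the usual type V heterotrimer, which sits inside type I fibrils and limits their width. Col5a1 had 2002 in neurons from co-culture and 1890 in neurons alone, a log2 ratio of 0.08 that was -0.02 under spiked control scaling. Col5a2 had 4846 in neurons from co-culture and 5085 in neurons alone, a log2 ratio of -0.07 that was 0.02 under median scaling. On these probe sets neither chain was further from 0 than the probe set SD of 0.21. The second probe sets gave 0.20 for Col5a1 and -0.23 for Col5a2, which is slightly beyond that SD.

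Col5a3, the third and more restricted type V chain, stood apart from its partners. It had an intensity of 1435 in neurons from co-culture and 618 in neurons alone, 2.32-fold higher, with a log2 ratio between 1.11 and 1.30 over the 6 scalings. The log2 ratio exceeded that of Col5a1 by 1.13 and that of Col5a2 by 1.28, where the combined probe set SD is 0.29. It was measured by 1 probe set, so no other probe set checks it. Its promoter is shown because it is the member with the largest difference. The RefSeq window from 250 bases before to 50 bases after the annotated start lies at chr8:27625899-27626198 on the minus strand of GRCr8, with capitals for 3 matches to GGGCGG or its complement CCGCCC, the core of a GC box, and 1 match to CCAAT or its complement ATTGG. No match to TATAAA or its complement TTTATA was found in this window.
Col5a3: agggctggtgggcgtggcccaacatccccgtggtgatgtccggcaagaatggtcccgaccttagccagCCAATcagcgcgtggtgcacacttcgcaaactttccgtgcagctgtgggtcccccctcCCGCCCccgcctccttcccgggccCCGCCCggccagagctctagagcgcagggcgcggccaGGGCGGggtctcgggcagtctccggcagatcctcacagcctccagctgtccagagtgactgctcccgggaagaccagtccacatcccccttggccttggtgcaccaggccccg

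Col11a1, a type XI chain that is closely related to Col5a1 and is best known from cartilage, was the lowest member. It had 98.4 in neurons from co-culture and 226 in neurons alone, 2.29-fold lower, a log2 ratio of -1.20. The higher of these values is just above the median of its array and the other is below it, so that the gene passed the filter through neurons alone only. The ratio was -0.92 with the floor for low values at the 40th percentile, and the second probe set of the gene was under the floor of 39.6 on both arrays (2.22 in neurons from co-culture and 22.5 in neurons alone). Below the filter were Col2a1, the main chain of cartilage (103 in neurons from co-culture and 79.4 in neurons alone), Col27a1 (139 in neurons from co-culture and 127 in neurons alone) and Col11a2 (29.5 in neurons from co-culture and 20.7 in neurons alone).

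Of the basement membrane chains, the type IV network genes were nearly equal on both arrays, and the types XV and XVIII genes were higher in neurons from co-culture. Of 6 genes 5 were above the filter, and the median log2 ratio was 0.06, or -0.04 under spiked control scaling. Col4a1 had 4198 in neurons from co-culture and 4193 in neurons alone. Col4a2, its partner in the standard type IV heterotrimer, had 3102 in neurons from co-culture and 2971 in neurons alone. The log2 ratios of 0.00 and 0.06 lay 0.06 apart, with a combined probe set SD of 0.29, and both were negative under lowess and spiked control scaling, Col4a1 also under quantile normalization. The second probe set of Col4a1 gave 0.09. Col4a5, a chain of specialised basement membranes such as that of the kidney, was at the filter with 183 in neurons from co-culture and 185 in neurons alone, and passed through the co-culture array only. Col4a4 was below it (43.1 in neurons from co-culture and 40.6 in neurons alone).

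Col4a1 and Col4a2 are known to be transcribed in opposite directions from a shared promoter, and their windows are printed because this pair had nearly equal ratios. In the GRCr8 annotation of RefSeq the starts are 77 bases apart on chromosome 16, so the windows share 176 bases and are read from opposite strands. The Col4a1 window is chr16:84885347-84885646 on the plus strand and the Col4a2 window is chr16:84885471-84885770 on the minus strand. Capitals mark the same motifs as above, which are 2 GGGCGG and 2 CCAAT matches for Col4a1 and 2 GGGCGG and 1 CCAAT match for Col4a2, none of them overlapping the other motif.
Col4a1: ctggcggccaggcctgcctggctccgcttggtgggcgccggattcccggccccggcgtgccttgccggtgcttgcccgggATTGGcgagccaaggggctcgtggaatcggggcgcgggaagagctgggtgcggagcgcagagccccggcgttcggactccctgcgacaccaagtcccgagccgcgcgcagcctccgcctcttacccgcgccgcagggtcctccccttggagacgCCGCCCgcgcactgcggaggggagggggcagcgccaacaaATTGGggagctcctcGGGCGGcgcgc
Col4a2: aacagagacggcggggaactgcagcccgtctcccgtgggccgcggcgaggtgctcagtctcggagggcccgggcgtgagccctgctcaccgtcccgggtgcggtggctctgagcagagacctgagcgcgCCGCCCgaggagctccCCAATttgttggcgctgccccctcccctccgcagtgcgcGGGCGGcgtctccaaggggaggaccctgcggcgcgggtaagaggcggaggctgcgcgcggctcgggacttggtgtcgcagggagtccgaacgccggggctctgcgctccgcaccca

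Col15a1, a proteoglycan-like collagen that links basement membrane to the fibres beneath, had 914 in neurons from co-culture and 648 in neurons alone. This is 1.41-fold, a log2 ratio of 0.50 with a probe set SD of 0.27, and it stayed between 0.39 and 0.58 over the 6 scalings. Col18a1, its relative and the precursor of endostatin, had 1597 in neurons from co-culture and 1363 in neurons alone. Its brightest probe set gave a log2 ratio of 0.23 and the other 0.21. The Col15a1 and Col18a1 log2 ratios differed by 0.27, less than their combined probe set SD of 0.34.

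**Figure D2:**
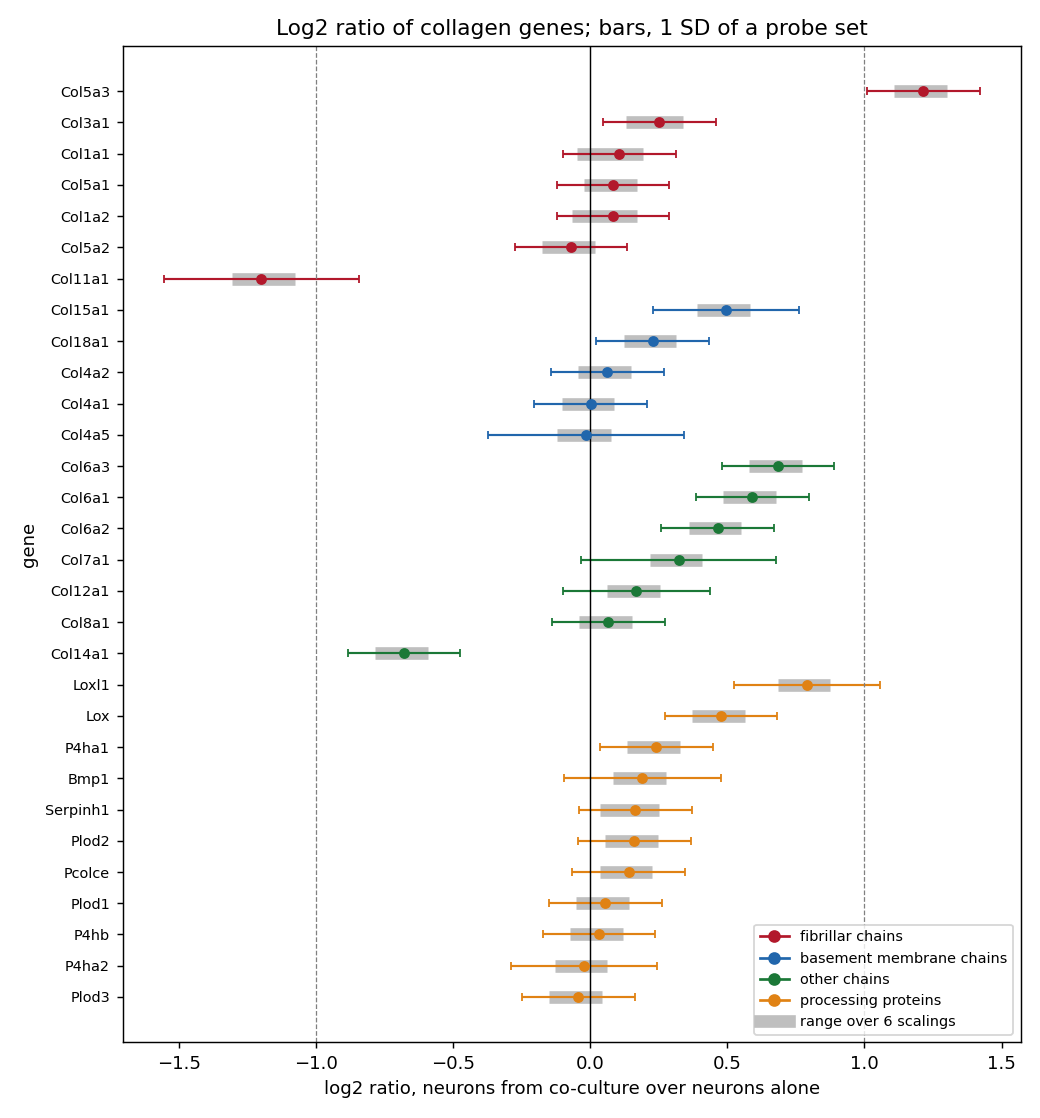
Log2 ratio (co-culture over alone) for each collagen gene above the filter, with bars of 1 SD of a probe set at that signal and grey bands for the range over 6 scalings. Dashed lines mark 2-fold. Col5a3, Loxl1, Lox and the type VI chains lie right of 0 with their bars, Col11a1 and Col14a1 left of it, and Col4a1 sits at 0.

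All 3 chains of type VI collagen measured were higher in neurons from co-culture. They are Col6a1, Col6a2 and Col6a3, which make up the classical heterotrimer of the microfibrils around muscle, nerve and fat cells. Col6a3 had 1817 in neurons from co-culture and 1130 in neurons alone, 1.61-fold. Col6a1 had 2614 in neurons from co-culture and 1735 in neurons alone, 1.51-fold, which fell below 1.5-fold under quantile normalization, lowess, spiked control scaling and the pseudocount. Col6a2 had 1859 in neurons from co-culture and 1347 in neurons alone, 1.38-fold. The log2 ratios of 0.68, 0.59 and 0.46 were each over 2 probe set SD (0.21) from 0 and were at 0.36 or above in each of the 6 scalings. Between any pair of them the difference was at most 0.22, within the combined SD of 0.29. The second probe set of Col6a2, below the filter, gave 0.55 (132 in neurons from co-culture and 90.5 in neurons alone).

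The windows at the starts of Col6a1 and Col6a3 are given because these chains had similar ratios. In GRCr8 they are chr20:11905440-11905739 on the plus strand and chr9:98886909-98887208 on the minus strand, so the chains lie on separate chromosomes. Neither window held any of the 3 motifs on either strand, which is why neither has capitals.
Col6a1: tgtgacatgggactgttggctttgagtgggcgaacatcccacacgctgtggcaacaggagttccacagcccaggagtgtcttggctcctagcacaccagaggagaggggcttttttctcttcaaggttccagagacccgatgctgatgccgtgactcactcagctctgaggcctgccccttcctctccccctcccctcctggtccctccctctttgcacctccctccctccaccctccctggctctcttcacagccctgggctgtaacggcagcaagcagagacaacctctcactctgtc
Col6a3: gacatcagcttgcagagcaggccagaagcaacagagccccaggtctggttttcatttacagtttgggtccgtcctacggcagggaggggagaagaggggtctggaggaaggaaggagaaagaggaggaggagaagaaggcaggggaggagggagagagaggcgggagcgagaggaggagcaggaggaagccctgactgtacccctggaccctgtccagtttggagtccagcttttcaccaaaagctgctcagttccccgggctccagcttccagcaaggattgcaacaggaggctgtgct

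For 32 of the 40 genes RefSeq gave such a window. GGGCGG was found on either strand in 20 of these 32 (62.5%), against 33.1% of all 33469 windows of the same length in that table. CCAAT was in 7 (21.9%, against 37.5%) and TATAAA in 2 (6.25%, against 14.2%). These are matches of letters and not measured binding sites.

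Among the other chains, 7 of 13 were above the filter, with a median log2 ratio of 0.32 (0.07 with no filter). Col7a1, the anchoring fibril collagen beneath epithelia, had 331 in neurons from co-culture and 265 in neurons alone, a log2 ratio of 0.32 within the probe set SD of 0.36. Col12a1, a collagen that binds to the surface of fibrils, had 810 in neurons from co-culture and 720 in neurons alone (0.17). Col8a1, a short-chain network collagen of vessel walls, had 1524 in neurons from co-culture and 1455 in neurons alone, a log2 ratio of 0.07 that was -0.04 under spiked control scaling. None of these 3 was further from 0 than its probe set SD.

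Col14a1 was lower in neurons from co-culture, while Col12a1, a fibril-associated collagen of the same class, was within its probe set SD of 0. Col14a1 had 769 in neurons from co-culture and 1230 in neurons alone, 1.60-fold lower, with a log2 ratio of -0.68 and a range of -0.78 to -0.59 over the scalings. Its dimmer probe set, below the filter, was also lower (140 in neurons from co-culture and 174 in neurons alone, -0.32). The 6 other chains below the filter were Col8a2, Col9a1, Col9a2, Col10a1, Col19a1 and Col26a1. Over all 10 members below the filter, intensities ran from 5.19 to 140 in neurons from co-culture and from 8.05 to 150 in neurons alone, with 5 higher and 5 lower in neurons from co-culture. They include the cartilage collagens of types II, IX and X.

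**Figure D3:**
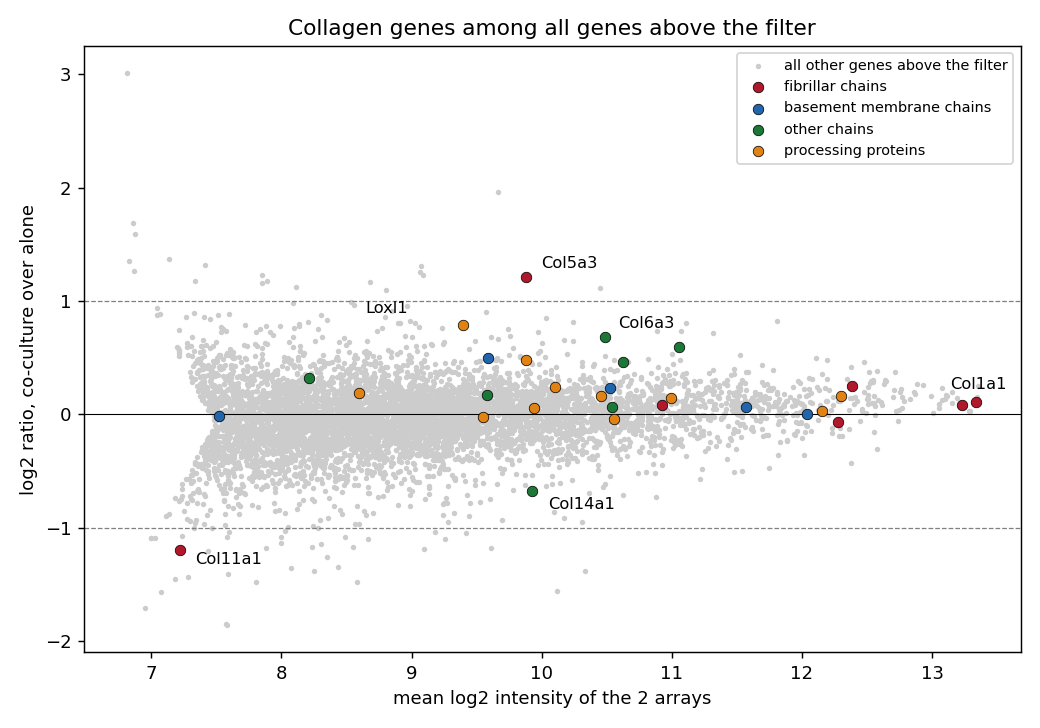
Log2 ratio (co-culture over alone) against the mean log2 intensity, for all 6368 genes above the filter (grey) and the 30 collagen genes (coloured by group). Col5a3 lies above the dashed 2-fold line, and Col11a1 lies below the lower line at the dim end, where the cloud is widest.

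The processing proteins, all 11 above the filter, were split by step. The cross-linking enzymes were higher in neurons from co-culture, while the hydroxylases that act inside the cell were nearly equal on both arrays. Loxl1, a lysyl oxidase best known for its part in elastic fibres, had 887 in neurons from co-culture and 513 in neurons alone, 1.73-fold, with a log2 ratio of 0.79 that ranged from 0.68 to 0.88 over the scalings. Lox, which oxidises lysines of collagen and elastin, had 1113 in neurons from co-culture and 800 in neurons alone, 1.39-fold. Its probe sets gave log2 ratios of 0.48 and 0.44. Loxl1 and Lox differed by 0.31, less than their combined probe set SD of 0.34.

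The 6 prolyl and lysyl hydroxylase genes had a median log2 ratio of 0.04. P4ha1, a catalytic subunit of prolyl 4-hydroxylase, had 1193 in neurons from co-culture and 1009 in neurons alone (0.24), slightly above the probe set SD of 0.21. The alternative subunit P4ha2 had 745 in neurons from co-culture and 756 in neurons alone (-0.02, but 0.06 under median scaling and just above 0 under trimmed mean scaling). The shared subunit P4hb, also known as protein disulfide isomerase, had 4611 in neurons from co-culture and 4508 in neurons alone (0.03, -0.07 under quantile normalization and spiked control scaling and -0.06 under lowess). The subunits of this enzyme thus lay within 1.18-fold on the 2 arrays.

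Among the lysyl hydroxylases, which prepare lysines for sugar addition and cross-links, Plod1 had 1004 in neurons from co-culture and 966 in neurons alone. Plod2, the isoform that modifies the ends of the chains where cross-links form, had 1486 in neurons from co-culture and 1329 in neurons alone. Plod3 had 1486 in neurons from co-culture and 1531 in neurons alone. The log2 ratios were 0.06, 0.16 and -0.04, all within the probe set SD of 0.21, and that of Plod1 was -0.05 under spiked control scaling while that of Plod3 was 0.04 under median scaling.

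Serpinh1, the chaperone of folded collagen, had 5335 in neurons from co-culture and 4759 in neurons alone (0.16). Pcolce, which enhances removal of the C-propeptide, had 2143 in neurons from co-culture and 1944 in neurons alone (0.14). Both kept their sign in the 6 scalings and were within the probe set SD of 0.21. Bmp1, the protease that cuts off this propeptide, had 414 in neurons from co-culture and 363 in neurons alone on its brightest probe set (0.19). Its other probe set ran the other way, with 152 in neurons from co-culture and 214 in neurons alone (-0.50), so no direction can be given for Bmp1.

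Repeat probe sets gave a view of the noise. Of the 40 genes 15 had 2 probe sets, and in 8 of them both were above the filter. In 7 of these 8 the signs were the same, Bmp1 being the exception. The share of equal signs over all genes with 2 probe sets was not computed. Col1a1, Col1a2, Col4a1, Col5a1 and Col5a2 are among the 12 genes whose sign changed with the scaling, so their equal signs say little. The gap between the probe sets of Col1a1 was 0.03, of Lox 0.04, of Col1a2 0.05 and of Col5a2 0.16. Of the 4 genes that were at least 1.5-fold higher, each had 1 probe set.

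**Figure D4:**
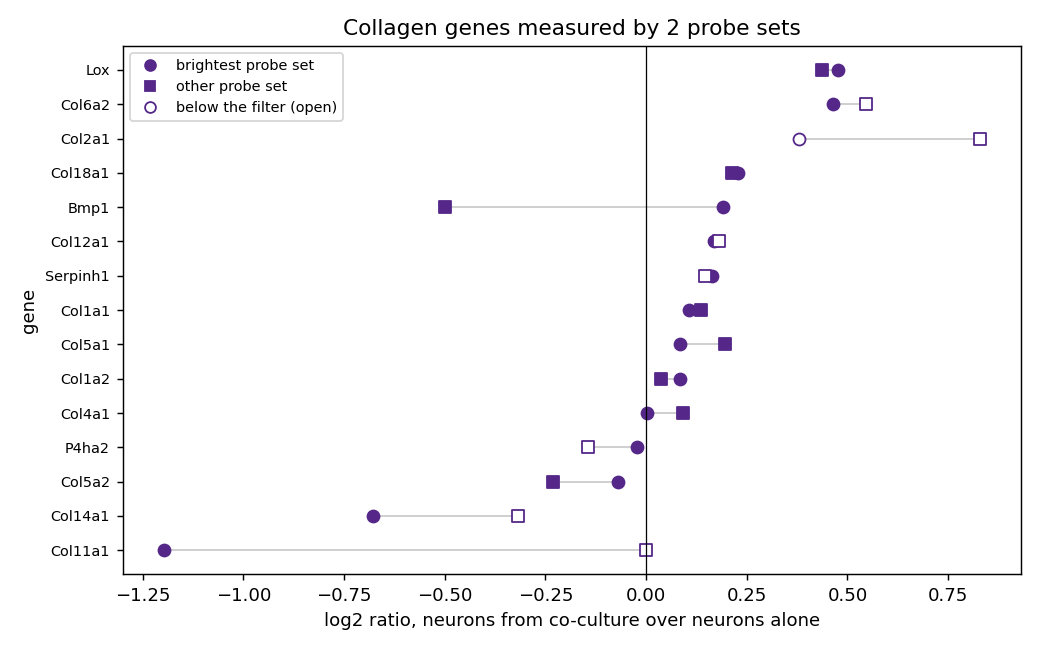
Log2 ratio (co-culture over alone) on each probe set of the 15 collagen genes with 2 probe sets, with circles for the brightest and squares for the other, open where below the filter. Points of a gene lie close together for Lox, Col18a1 and Col1a1, and on opposite sides of 0 for Bmp1 (0.19 and -0.50).

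Other genes of the collagen pathway were described by 4 lists. None of the 4 measured collagen receptor genes was past 1.5-fold, and their median log2 ratio was -0.00. Itgb1, the beta subunit shared by the collagen-binding integrins, had 3896 in neurons from co-culture and 4120 in neurons alone (-0.08, 0.01 under median scaling). The collagen-binding receptor kinase Ddr1 had 749 in neurons from co-culture and 789 in neurons alone (-0.08, also 0.01 under median scaling). Ddr2, a receptor kinase for fibrillar collagen named after its value was seen, had 298 in neurons from co-culture and 221 in neurons alone (0.43).

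The list of other folding, export and propeptide genes also had no member past 1.5-fold among 19 above the filter (of 21 measured). With 12 higher and 7 lower (47.3% and 52.7% of all genes), the list had a median of 0.02. Its brightest members were the chaperones Hsp90b1 (4473 in neurons from co-culture and 4183 in neurons alone, 0.10, or -0.01 at the low end of the scalings) and Calr (3803 in neurons from co-culture and 4402 in neurons alone, -0.21). P3h1, a prolyl 3-hydroxylase of fibrillar collagen named after its value was seen, had 496 in neurons from co-culture and 392 in neurons alone (0.34). The general secretory chaperones thus went both ways by small amounts.

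The list of fibril-associated and elastic fibre genes had the widest range of log2 ratios of the 4, from -0.71 to 1.09. Of 17 above the filter 10 were higher and 7 lower, 3 were at least 1.5-fold higher and 1 lower, and the median was 0.21. Over all genes 47.3% were higher, 1.93% at least 1.5-fold higher and 3.3% at least 1.5-fold lower. Dcn, a proteoglycan that coats collagen fibrils, had 652 in neurons from co-culture and 306 in neurons alone (1.09). Emilin1, a glycoprotein of elastic fibres, had 597 in neurons from co-culture and 330 in neurons alone (0.86). Lum, another fibril-coating proteoglycan, had 689 in neurons from co-culture and 395 in neurons alone (0.80). The proteoglycan Prelp had 397 in neurons from co-culture and 651 in neurons alone (-0.71). In elastic tissue Loxl1 is known to act with Fbln5 on Eln. These were named with their values known and passed the filter through neurons alone only, the array where they are higher, so no direction is read from them. Fbln5 had 134 in neurons from co-culture and 188 in neurons alone, and Eln had 161 in neurons from co-culture and 191 in neurons alone.

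All 7 genes of collagen breakdown and its inhibitors that were above the filter, of 11 measured, were higher in neurons from co-culture, in each of the 6 scalings (30.6% of all genes), with none past 1.5-fold and a median of 0.29. Ctsb, a lysosomal protease, had 3172 in neurons from co-culture and 2688 in neurons alone (0.24). Timp1, an inhibitor of matrix metalloproteinases, had 3217 in neurons from co-culture and 2521 in neurons alone (0.35). Mmp14, a membrane collagenase named after its value was seen, had 2615 in neurons from co-culture and 2132 in neurons alone (0.29).

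**Figure D5:**
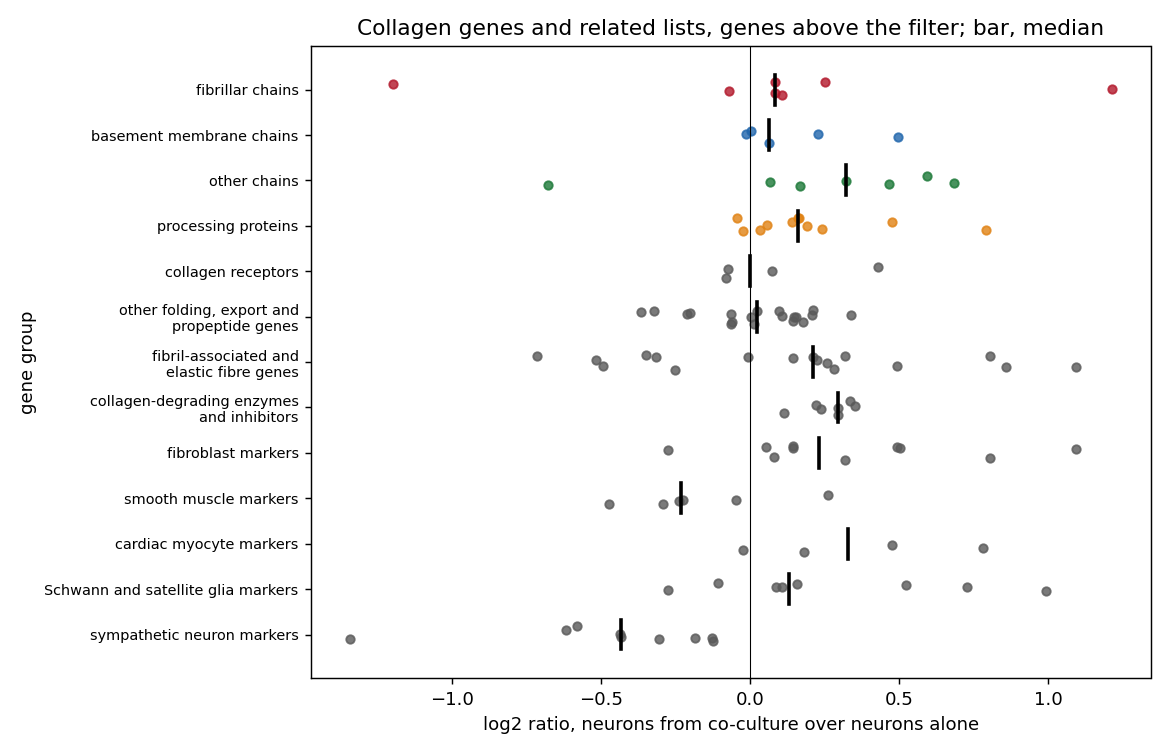
Log2 ratio (co-culture over alone) for each gene above the filter in the collagen groups (coloured), the related lists and the cell type marker lists (grey), with a black bar at the median. The fibril-associated list spreads widely (-0.71 to 1.09), the list of other folding and export genes runs from -0.37 to 0.34, and the neuron markers lie left of 0.

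Markers of other cell types moved between the arrays as well. The fibroblast list had 9 of 10 members above the filter higher in neurons from co-culture, 7 of them in each of the 6 scalings (Vim and S100a4 changed sign). Over all genes 47.3% were higher as deposited and 30.6% in each scaling. Of its 11 measured members Dcn, Lum, Postn, Fn1, Fbln1 and Fap are also on the lists above. The other 5 (Vim, S100a4, Thy1, Pdgfrb and Pdgfra) summed to 16009 in neurons from co-culture and 15608 in neurons alone. Vim weighs most in that sum, and its members went both ways. Pdgfrb was 1.42-fold higher (481 in neurons from co-culture and 340 in neurons alone). Thy1, the 1 lower member of the fibroblast list, was 1.21-fold lower (1667 in neurons from co-culture and 2018 in neurons alone). The summed intensity over all 11 measured members was 27708 in neurons from co-culture and 24146 in neurons alone, a ratio of 1.15. The smooth muscle list had 5 of 6 lower (Des at 0.04 under median scaling), against 52.7% of all genes. Its sums were 8722 in neurons from co-culture and 10683 in neurons alone. The cardiac myocyte list had 4 of 11 members above the filter, of which Nppa and Nppb passed through the co-culture array only. Its sums over all 11 were 1770 in neurons from co-culture and 1297 in neurons alone. As 7 of the 11 were below the filter, no direction is read from these sums. Nppa, the atrial natriuretic peptide gene, had 201 in neurons from co-culture and 178 in neurons alone. The Schwann and satellite glia list had sums over its 9 measured members of 10425 in neurons from co-culture and 9690 in neurons alone. Cryab (5107 in neurons from co-culture and 4583 in neurons alone) and Pmp22 weigh most in these sums. Of its 8 members above the filter 6 were higher (Sox10 at -0.02 under spiked control scaling), against 47.3% of all genes. But 3 of these, Egr2, Erbb3 and Gfap, passed through the co-culture array only, where they are higher, so nothing is read from this count. The 2 lower members, in each of the 6 scalings, were Mbp (324 in neurons from co-culture and 392 in neurons alone) and Pmp22 (2916 in neurons from co-culture and 3141 in neurons alone). The 2 members past 1.5-fold, against 1.93% of all genes, were named with their values known. S100b, a glial calcium-binding protein gene, had 524 in neurons from co-culture and 263 in neurons alone (1.99-fold). Egr2, a myelination transcription factor, had 288 in neurons from co-culture and 174 in neurons alone (1.66-fold), and no direction is read from it. No endothelial marker of 4 was above the filter, and 4 of 5 macrophage markers were, Csf1r and Aif1 through neurons alone only. All 5 macrophage markers summed to 1028 in neurons from co-culture and 1133 in neurons alone. No measured marker had a deposited intensity of 0. Tnni3, Ryr2, Pecam1 and Kdr were under the floor of 39.6 on both arrays, so their log2 ratios were set to 0.

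The sympathetic neuron list ran the other way, with all 9 measured members lower in neurons from co-culture in each of the 6 scalings. Over all genes 38.7% were lower in each scaling and 3.3% were at least 1.5-fold lower. The list summed to 26867 in neurons from co-culture and 33073 in neurons alone. Th, the rate-limiting enzyme of noradrenaline synthesis, had 4575 in neurons from co-culture and 6175 in neurons alone. Of the 9, 2 were at least 1.5-fold lower, both named with their values known: the noradrenaline transporter Slc6a2 had 217 in neurons from co-culture and 552 in neurons alone (2.54-fold lower), and the vesicle fusion protein gene Snap25 had 1159 in neurons from co-culture and 1778 in neurons alone (1.53-fold lower). The fibroblast markers Vim (8646 in neurons from co-culture and 8328 in neurons alone) and Pdgfra (244 in neurons from co-culture and 221 in neurons alone) were above the filter on both arrays too.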

How the data were processed

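RNA was measured on 2 Affymetrix Rat Expression Set arrays, 1 per condition. The authors deposited 1 linear intensity per probe set and array. Per the series' design text dChip 1.3 did the quantification, while the submitters' processing notes name MAS5. Background step and scaling target: not given in the sources used here. The trimmed means (2% off each end) were 360.4 in co-culture and 367.4 alone, so no normalization was added. Of 15923 probe sets, 57 controls were left out. Intensities under the pooled 20th percentile (39.6) were set to it, and log2 ratios were formed from the authors' intensities with Python 3.11.15 and statsmodels 0.14.6 (lowess span 0.3). Updating symbols to GRCr8 RefSeq changed 0 of them. There was no test, since each group has 1 array, and the number of arrays limits the precision. The ratio and scaling functions were tested on simulated data. Genes above the filter were named by rule: all collagen members, of each other pathway list up to 4 past 1.5-fold or else the 2 brightest, and Nppa, Th, Vim and Pdgfra as marker checks. Other markers were named with their values known. Members and lists were chosen with earlier results of these data known. Alternatives covered scaling, floor, pseudocount, filter, probe set choice, symbols and chain grouping.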

Additional observations from a re-analysis of the deposited data

How the results depend on the processing

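Of 389 values of single collagen genes under the alternatives, 388 stayed within 1 SD of a probe set of the deposited-scale value. The exception was Bmp1, at -0.15 as the mean over its probe sets. None of those past 1.5-fold changed sign. Many of the 389 could not have moved that far, so the count is no measure of robustness. The filter and symbol settings leave a gene's ratio as it is. Median, trimmed mean and spiked control scaling shift all genes alike by at most 0.11, below the smallest SD of 0.21. The count of genes lower in co-culture, 6 as deposited, was 2 under median scaling, 10 under lowess, 13 under spiked control scaling and 10 with no filter, which adds dim genes. The count at least 1.5-fold higher, 4 as deposited, was 2 under spiked control scaling (Col5a3 and Loxl1) and 3 under quantile normalization, lowess and the pseudocount, each without Col6a1. The count at least 2-fold lower, 1 as deposited (Col11a1), was 0 with the floor at the 40th percentile and 0 with a pseudocount of the floor value, both of which shrink ratios of dim genes. The median of all collagen genes ranged from 0.05 to 0.24. With types XV and XVIII among the other chains, the basement membrane median was 0.00. No paired analysis was possible because each condition had 1 array. Ratios of dim genes are the least certain, since their signal is closest to background.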
